A study of Drosophila melanogaster with 3 samples.

Results

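The cytoplasmic ribosomal protein genes encode the proteins of the large and small subunits of the ribosome that translates nuclear mRNAs. They were taken as the protein-coding genes of the Drosophila melanogaster annotation whose symbols begin with RpL or RpS followed by a digit or P, which gave 92 of 13968 genes on the chromosome arms, 54 of the large and 38 of the small subunit. The rule used symbols only and no measured value. It leaves out sta and Rack1, which also encode proteins of the small subunit, and it takes in paralogs whose names resemble ribosomal proteins, such as RpL24-like and RpLP0-like.

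Binding was mapped by chromatin immunoprecipitation and sequencing (ChIP-seq) of the protein Mabi in whole embryos of mixed sex aged 0 to 4 h, in 1 group of 3 biological replicates. All 3 came from 1 transgenic line in which the C-terminus of Mabi (CG15479) is joined to GFP, a fluorescent tag, and the description in the labels names an anti-GFP antibody while the antibody field names CG15479. No second condition was included, the embryos span several stages, and the labels do not name the promoter that drives the fusion. The data are peak lists on dm6 with 30000 peaks for each replicate, 30000 for the pooled replicates and 5049 in the optimal irreproducible discovery rate (IDR) list, which is meant to keep peaks that recur between replicates. A gene has a promoter peak here if a summit lies within 1000 bp of any of its annotated transcription start sites (TSSs), and a replicate's peak is called strong if it is among the 5049 strongest of that list. Read depth is unknown, so levels are given as the authors' peak signal or rank within a list, and no groups of samples could be tested.

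Ribosomal protein genes are among the most highly transcribed genes of dividing cells, and flies with 1 working copy of many of them show the Minute phenotype of slow growth. In Drosophila most of them start transcription at a pyrimidine-rich initiator, the TCT motif, rather than at the common initiator, and they are served by the TBP-related factor Trf2 with the DNA-binding proteins Dref and M1BP. Embryos of this age pass from maternal RNA to their own transcription.

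Of the 92 genes, 41 (44.6%, Wilson 95% interval 34.8 to 54.7) had an IDR promoter peak, against 18.4% of all 13968 protein-coding genes. The large subunit had one at 24 of 54 genes (44.4%) and the small subunit at 17 of 38 (44.7%), so the 2 subunits had near-equal shares. In the pooled list of any rank, 87 of the 92 genes (94.6%) had a promoter peak, against 56.6% of all genes. The 41 peaks were of middle strength, with a median signal of 429 and a range of 296 to 1487, against a median of 487 over all 2566 genes with an IDR promoter peak. With the count restricted to the strongest 2524 IDR peaks, 16 ribosomal protein genes (17.4%) remained, against 9.52% of all genes.

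The ribosomal protein genes had most of their best peaks among the strongest 10000 of the 30000 pooled peaks, on either side of the end of the IDR list. Ranks 2525 to 5049 held the best promoter peak of 25 of them (27.2%, against 8.85% of all genes), and the following ranks up to 10000 held that of 32 more (34.8% against 13.0%). By rank 10000, 73 of the 92 genes (79.3%) had a peak, against 31.3% of all genes. A further 14 had their best peak at a lower rank, and 5 had none. Over the 87 genes with a pooled peak the median best rank was 5162 with quartiles of 3109 and 7862, against a median of 8639 and quartiles of 3708 and 16053 over the 7903 genes of any kind with one. The end of the IDR list at rank 5049 cut through the middle of the family. The first genes beyond it were RpL36A at rank 5106 and RpL17 at 5147. By the nearest IDR summit, the distance limit divided the family less closely. Among genes with an IDR peak, the nearest summits farthest from a TSS were those of RpS12 at 801 bp, RpS28a at 653 bp and RpS19b at 621 bp. Outside the limit RpL8, RpL22 and RpS14a had their nearest IDR summit at 1080, 1098 and 1100 bp. The stronger summit of RpS12, which gave its signal of 489, lay 1000 bp upstream, on the limit itself and nearer to another gene.

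**Figure D1:**
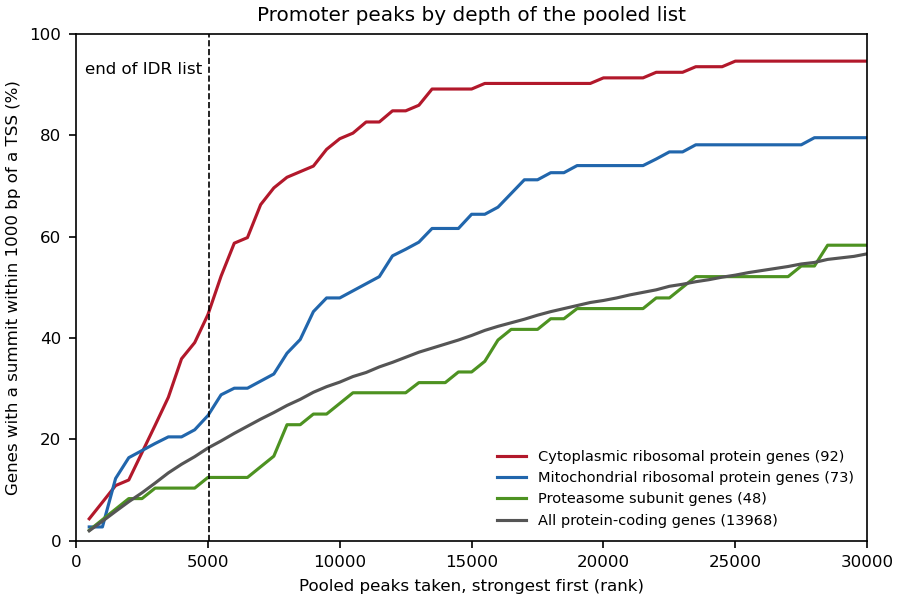
The share of genes with a summit within 1000 bp of a TSS (y axis, %) is plotted against the number of pooled peaks taken, strongest first (x axis, rank), for the cytoplasmic ribosomal protein genes, mitochondrial ribosomal protein genes, proteasome genes and all protein-coding genes. The curve of the cytoplasmic ribosomal protein genes passes 44.6% at the end of the IDR list and 79.3% at rank 10000, where all genes stand at 18.4% and 31.3%.

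The strongest peak of the family lay at RpL7 (FBgn0005593), a large-subunit protein gene, with a signal of 1487 and IDR rank 252 for the peak at chr2L:10200781-10201218. The summit lay in the 5′ UTR, 18 bp downstream of 1 of its 2 TSSs. It lay 85 bp upstream of the TCT initiator, which stands at the other TSS. Its best promoter peak ranked 254, 148 and 568 of 30000 in replicates 1, 2 and 3, at 9.33, 11.6 and 8.23 times the median signal of each list. RpL24-like, related to a ribosome assembly factor of yeast, had a signal of 1458 and ranks of 456, 190 and 372, but its summit, 113 bp upstream of its own TSS, lay nearer to the TSS of CG5276. Both peaks stood near the top of all 3 replicate lists.

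RpS25 (FBgn0086472), a small-subunit protein gene, had 2 IDR summits, the stronger with a signal of 1382 at chr3R:11216203-11216662, and ranks of 918, 206 and 334 in replicates 1, 2 and 3. RpS30 (FBgn0038834), whose mammalian counterpart is made as a fusion with a ubiquitin-like protein, had a signal of 1063 at chr3R:20850370-20850733 and ranks of 1162, 370 and 738. In both genes replicate 1 ranked the peak lowest and replicate 2 highest.

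RpL13A had a signal of 825 at chr3R:5624261-5624757, with the summit exactly on a TSS, and ranks of 1491, 1050 and 871. RpS14b had a signal of 819 at chrX:7934607-7935051 and ranks of 1185, 1024 and 1006. RpL13 had a signal of 781 and ranks of 898, 1131 and 1272, with its summit 92 bp upstream of its TSS. That summit lay nearer to a TSS of the neighbouring gene Dref, which encodes a factor that binds ribosomal protein promoters. These 3 genes were strong in every replicate.

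RpS27 followed with a signal of 710 and ranks of 1601, 770 and 2591, and RpLP0-like, related to the yeast assembly factor Mrt4, with 707 and ranks of 916, 1806 and 1443. The RpLP0-like summit lay 380 bp upstream of its TSS and nearer to 14-3-3zeta. RpL3, whose protein reaches the peptidyl transferase centre, had a signal of 575 and ranks of 2862, 1223 and 2701. All 3 genes were strong in every replicate.

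RpS28a had a signal of 537 (ranks 1675, 1713 and 2773), with a summit 653 bp downstream of its TSS, beyond the end of its own gene and nearer to another gene. Its paralog RpS28b had a signal of 496 at a summit 28 bp upstream of its own TSS, and ranked 8798 in replicate 1 against 1657 and 2867 in replicates 2 and 3. RpL34b had 507 (ranks 4228, 2050 and 2311), and RpS10b had 491 (ranks 3997, 1651 and 3489). Of the 15 genes with the highest signals, 14 were strong in every replicate, the exception being RpS28b. The other 26 genes with an IDR peak had signals of 296 to 489.

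The start regions of 6 of the strongest genes, and of 3 genes with no pooled promoter peak, are printed. The starts of genes with and without a pooled peak can so be read side by side. Each run holds 120 bases before a TSS and 30 from it on, in dm6 from the RefSeq copy of genome Release 6, read 5′ to 3′ on the strand of the gene. Where a gene has several TSSs, one with a TCT initiator was taken. Capitals mark the TCT initiator (CTTT with a C or T at each of the 2 bases on either side, within 10 bp of the TSS), the DNA replication-related element DRE (TATCGATA), which Dref binds, and the core of Motif 1 (GGTCACAC), which M1BP binds.
RpL7 (chr2L:10200980-10201129, plus strand): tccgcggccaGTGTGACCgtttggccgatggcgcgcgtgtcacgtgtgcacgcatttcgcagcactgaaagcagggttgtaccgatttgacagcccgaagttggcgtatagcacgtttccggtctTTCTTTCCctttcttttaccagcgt
RpL24-like (chr3R:11431553-11431702, minus strand): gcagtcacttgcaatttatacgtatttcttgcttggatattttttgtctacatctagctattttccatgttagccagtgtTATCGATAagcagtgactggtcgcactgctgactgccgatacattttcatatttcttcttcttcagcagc
RpS25 (chr3R:11216258-11216407, minus strand): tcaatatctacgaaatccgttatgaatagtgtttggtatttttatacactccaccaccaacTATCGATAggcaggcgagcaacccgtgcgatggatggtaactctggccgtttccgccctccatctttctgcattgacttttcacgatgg
RpS30 (chr3R:20850477-20850626, plus strand): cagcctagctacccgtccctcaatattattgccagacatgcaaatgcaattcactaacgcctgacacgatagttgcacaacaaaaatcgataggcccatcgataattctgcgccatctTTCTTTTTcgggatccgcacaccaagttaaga
RpL13A (chr3R:5624354-5624503, plus strand): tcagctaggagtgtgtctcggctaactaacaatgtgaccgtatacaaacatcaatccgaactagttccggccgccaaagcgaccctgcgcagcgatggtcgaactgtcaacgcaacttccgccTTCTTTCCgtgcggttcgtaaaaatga
RpS14b (chrX:7934778-7934927, plus strand): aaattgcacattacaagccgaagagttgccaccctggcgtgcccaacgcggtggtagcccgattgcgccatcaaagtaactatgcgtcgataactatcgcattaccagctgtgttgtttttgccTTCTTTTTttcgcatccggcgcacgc
RpL10Aa (chr3R:15037246-15037395, plus strand): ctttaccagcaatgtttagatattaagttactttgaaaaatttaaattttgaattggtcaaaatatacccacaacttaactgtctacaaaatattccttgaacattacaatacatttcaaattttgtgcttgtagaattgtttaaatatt
RpS10a (chr3R:27652640-27652789, plus strand): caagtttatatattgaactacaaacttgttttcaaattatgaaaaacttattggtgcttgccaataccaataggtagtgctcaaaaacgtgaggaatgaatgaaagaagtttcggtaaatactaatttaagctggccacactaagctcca
RpS9 (chr3L:9511502-9511651, minus strand): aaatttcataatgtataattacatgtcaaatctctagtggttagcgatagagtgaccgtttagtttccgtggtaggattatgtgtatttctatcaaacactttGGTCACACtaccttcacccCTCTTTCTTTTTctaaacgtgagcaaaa

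Among the genes with a strong peak, RpL7, RpS30, RpL13A and RpS14b showed the TCT initiator, RpL7 in addition a Motif 1 core on the opposite strand, and RpL24-like and RpS25 a DRE but no initiator of this strict form. Of the 3 genes shown without a pooled peak, RpS9 showed the TCT initiator next to a Motif 1 core, and RpL10Aa and RpS10a showed none of the 3. A TCT initiator thus stood both at genes with strong peaks and at a gene with none in the pooled list. RpS9 did have promoter peaks at rank 3270 in replicate 2 and 6993 in replicate 3.

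**Figure D2:**
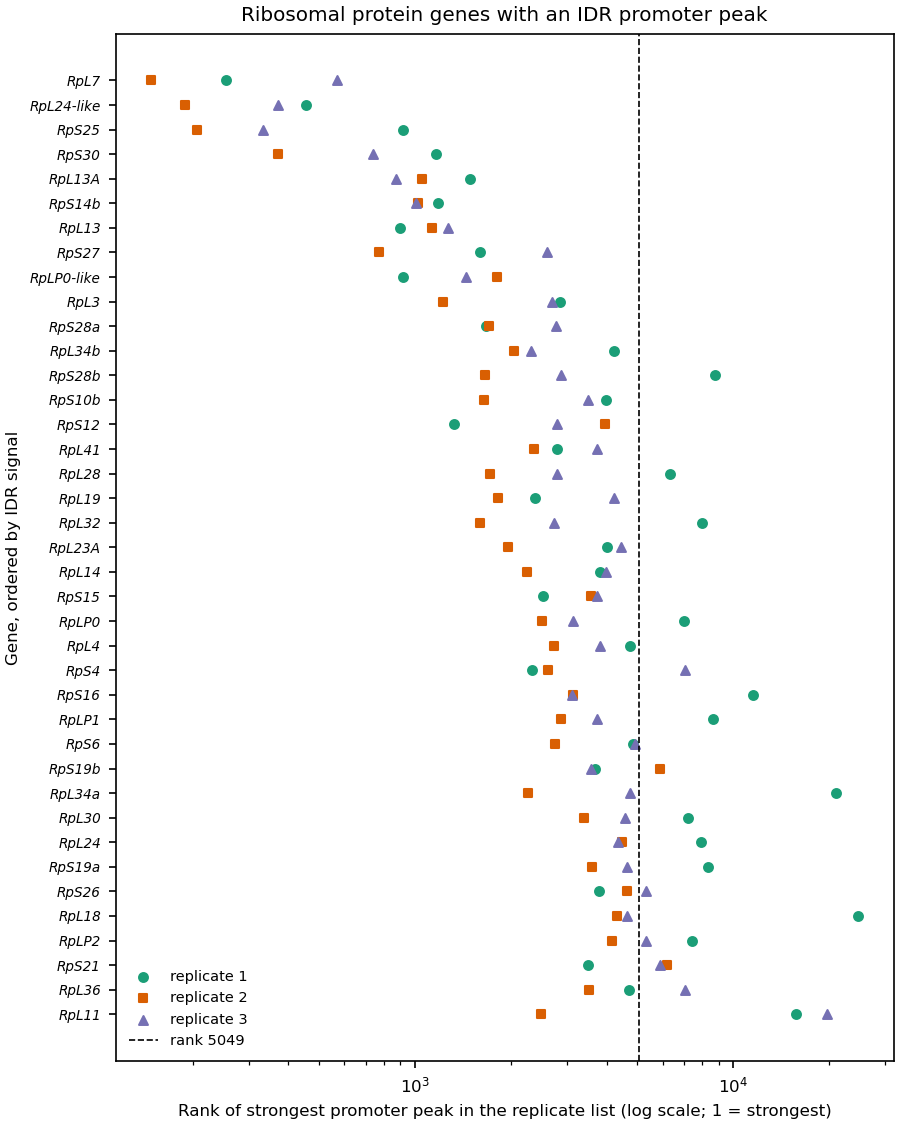
Each row is one of 39 ribosomal protein genes with an IDR promoter peak, ordered by IDR signal, and each point is the rank of its strongest promoter peak in the list of replicate 1, 2 or 3 (x axis, log scale, 1 is the strongest). The dashed line is rank 5049. Replicate 2 lies to the left of it for 37 genes, replicate 3 for 33 and replicate 1 for 26.

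The replicates differed in how many ribosomal protein genes they ranked highly. Replicate 1 had a strong promoter peak at 32 of the 92 genes (34.8%), replicate 2 at 51 (55.4%) and replicate 3 at 39 (42.4%). Over all genes the same shares were 16.6%, 18.8% and 17.7%, so the share of the family spanned a wider range between replicates and lay above that of all genes in each list. A strong peak in all 3 replicates was present at 22 genes (23.9%), against 12.6% of all genes. It was present in 2 replicates at 15 of the 92 genes, in 1 at 26 and in none at 29. Over all 13968 genes these counts were 632, 891 and 10692. Of the 41 genes with an IDR peak, 22 (53.7%) were strong in all 3 replicates, against 68.2% of all genes with one. A further 15 were strong in 2 replicates and 4 in 1. Of the 51 genes without an IDR peak, 22 were strong in 1 replicate and 29 in none. Requiring a strong peak in the other 2 replicates gave 33 genes without replicate 1, 23 without replicate 2 and 25 without replicate 3, against 15%, 13.7% and 13.4% of all genes.

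Among the genes with an IDR peak that was strong in 1 replicate were RpLP2, RpS21 and RpL11. RpL11, whose mammalian counterpart binds the p53 regulator MDM2, ranked 15787, 2490 and 19786 in replicates 1, 2 and 3. Its IDR signal of 296 thus came with a high rank in replicate 2 alone. The replicate 1 rank is that of a summit 774 bp downstream of the TSS, while the IDR summit lay 60 bp upstream. A replicate 1 summit of still lower rank lay 8 bp from the IDR summit. RpLP2 ranked 7444, 4171 and 5316, and RpS21 ranked 3491, 6188 and 5893. RpL34a and RpL18 had still wider ranks, with 21060 and 24746 in replicate 1 against 2265 and 4311 in replicate 2. Over the 80 genes with a promoter peak of any rank in all 3 replicates, Spearman's rho of the ranks was 0.496 for replicates 1 and 2, 0.561 for 1 and 3, and 0.782 for 2 and 3. Over the 6008 genes of any kind with such peaks it was 0.741, 0.782 and 0.839. These are correlations across genes, the lists share 1 control, and neighbouring genes can share a peak. A gene's best peak can also be a different peak in each replicate.

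Summits in the family lay close to the annotated starts. In 28 of the 41 genes (68.3%) the strongest IDR summit lay within 100 bp of a TSS, against 28.1% of the 2566 genes of any kind. The median distance was 64 bp, against 199 bp, and 36 of the 41 summits (87.8%) lay within 250 bp, against 58.7%. The median signed position was 28 bp upstream, against 88 bp upstream, and 28 of the 41 lay upstream (68.3% against 65.2%). By annotation, 23 summits lay outside the gene model, 15 in a 5′ UTR and 3 in an intron. In the pooled list, 61 of 87 genes (70.1%) had the summit of their best peak within 100 bp of a TSS, against 28.2% of 7903 genes. The 3 replicate lists showed the same closeness: the median distance of strong peaks was 68, 44 and 61 bp in replicates 1 to 3, against 209, 192 and 201 bp over all genes. The median side of the TSS was not stable, being 6 bp downstream in replicate 1, 28 bp upstream in replicate 2 and 14 bp upstream in replicate 3.

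**Figure D3:**
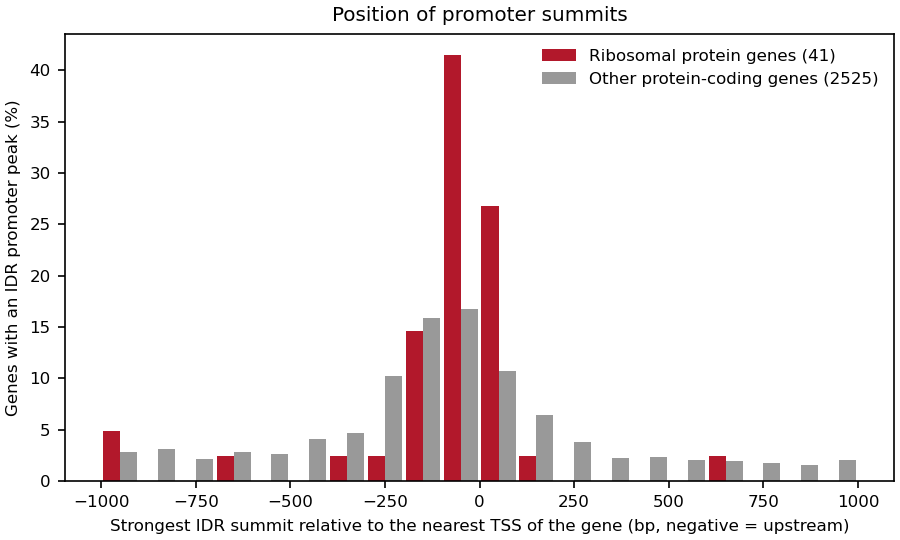
The position of each gene's strongest IDR promoter summit relative to its nearest TSS (x axis, bp, negative is upstream, bins of 100 bp) is shown as a share of genes with such a peak (y axis, %) for the 41 ribosomal protein genes and the 2525 other genes. The bins on either side of the TSS hold 41.5% and 26.8% of the ribosomal protein genes, against 16.7% and 10.7% of the others.

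In the 32 genes with both an IDR peak and a TCT initiator, the summit lay a median of 61 bp from the first base of the CTTT core. It lay within 100 bp in 26 of them, at 0 bp in RpLP1 and 2 bp away in RpL14. The initiator lies within 10 bp of a TSS by definition, so this distance is not independent of the distance to the TSS. The nearest summit of any rank in each replicate list lay within 100 bp of the IDR summit in all 3 replicates for 39 of the 41 genes. The exceptions were RpL32, with a shift of up to 149 bp, and RpS19a with up to 140 bp. RpL32 is a gene often used as a reference in expression assays. The IDR summits were called from the same alignments as the replicate summits, so their positions are not independent. The share within 100 bp over all genes was not measured. The peaks had a median width of 496 bp, the same as over all genes with an IDR promoter peak, and 36 of the 41 genes had 1 summit while 5 had 2.

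Many of these peaks also lay within 1000 bp of a TSS of another coding gene. Another protein-coding TSS lay within 1000 bp of a TSS of 58 of the 92 genes (63.0%), against 42.8% of all genes. An IDR peak was present at 32 of those 58 (55.2%), against 25.7% of all genes with such a neighbour, and at 9 of the 34 without one (26.5%), against 12.9%. The strongest summit also counted for another coding gene in 31 of the 41 (75.6%), against 52.7% of all genes with a peak. The nearest coding TSS was that of the ribosomal protein gene itself in 32 of the 41 (78.0%), against 73.7%. RpL28 shared its summit with eIF1, the gene of a translation initiation factor, RpS6 with bys, a gene of ribosome assembly, and RpL36 with Mybbp1A. Counting for each summit only the coding gene with the nearest TSS, 33 ribosomal protein genes (35.9%) kept a peak, against 14.0% of all genes. Which of 2 neighbouring genes a shared peak belongs to cannot be told from these lists.

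The TCT initiator was common in the family, to the same extent in genes with and without an IDR peak. It was present at 72 of the 92 genes (78.3%), against 1.81% of all 13968 promoters. Among genes with an IDR peak it stood at 32 of 41 (78.0%), and among those without at 40 of 51 (78.4%). With the 1 outermost TSS of each gene the count was 42 (45.7%), against 1.11% of all promoters. An IDR peak was present at 32 of the 72 genes with it and at 9 of the 20 without it, against 34.4% of all genes with it and 18.1% of all genes without it.

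The other motifs were sought on both strands from 250 bases before to 50 bases from the canonical TSS on. The DRE stood at 13 of 41 promoters with an IDR peak (31.7%) and 15 of 51 without (29.4%), against 8.94% of all promoters. Read the other way, 13 of 28 ribosomal protein genes with a DRE had an IDR peak (46.4%) and 28 of 64 without one (43.8%), against 26.3% and 17.6% over all genes. The Motif 1 core stood at 5 of 41 (12.2%) and 8 of 51 (15.7%), against 7.52%. Among all promoters with an IDR peak its share was 11.1%, and that of the DRE 12.8%. The E-box CAGCTG stood at 6 of 41 (14.6%) and 3 of 51 (5.88%), against 17.9%, and the TATA box TATAAA at 20 of 41 (48.8%) and 22 of 51 (43.1%), against 45.3%. The GAGA element GAGAG, which the factor Trl binds, stood at 9 of 41 (22.0%) and 7 of 51 (13.7%), against 30.2%. The hexamer CAGGTA, the core of sites of the zygotic genome activator Zelda, stood at 1 of 41 (2.44%) and 4 of 51 (7.84%), against 6.45%. Presence of the DRE or Motif 1 thus differed little between ribosomal protein genes with and without a peak, in counts that were not tested.

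**Figure D4:**
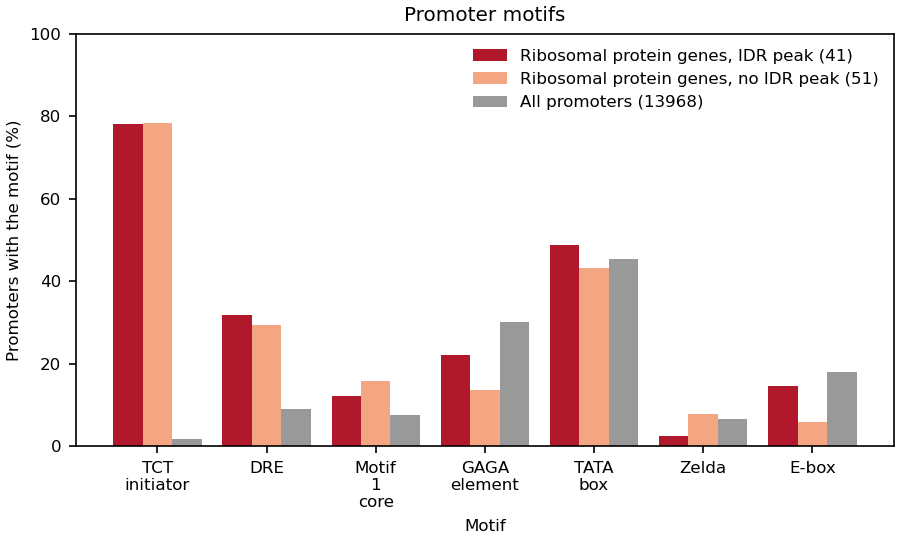
The share of promoters with each motif (y axis, %) is shown for the 41 ribosomal protein genes with an IDR peak, the 51 without one and all 13968 promoters. The TCT initiator stands at 78.0% and 78.4% of the ribosomal protein genes, against 1.81% of all promoters, and the DRE at 31.7% and 29.4%, against 8.94%.

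Around the summits themselves, in windows of 100 bp to either side, the DRE and Motif 1 were the more frequent, and GAGAG the less frequent, in the family than at promoter peaks at large. The DRE was present in 7 of 41 windows (17.1%), against 4.12% of the 1891 distinct promoter summits. The Motif 1 core was present in 5 (12.2%), against 4.23%, and TATAAA in 10 (24.4%), against 19.3%. In the promoter window the Motif 1 core differed less, at 12.2% of the family's promoters with an IDR peak and 11.1% of all such promoters. The family's summits also lay nearer to TSSs, 68.3% within 100 bp, against 28.1% over all genes with an IDR peak. Whether this accounts for the shares around the summits was not tested. GAGAG was present in 7 (17.1%), against 35.5%. The Zelda hexamer CAGGTA was in 0 of 41, a count that allows a share of up to 7.32%, against 10.8% of promoter summits and 13.2% of all 5049 IDR summits. No matches in these windows says nothing of the factors themselves.

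Paralogs differed within families. All 3 genes of the stalk, the P proteins that recruit translation factors to the large subunit, had an IDR peak of low signal: 402 at RpLP0 (ranks 7000, 2499 and 3135 in replicates 1 to 3), 371 at RpLP1 (8617, 2871 and 3738) and 309 at RpLP2. Replicate 1 placed all 3 beyond rank 5049. Of the 16 genes with a suffix a or b, 9 had an IDR peak, against 27 of the 66 genes outside the stalk, suffix, -like and ubiquitin fusion groups and 18.4% of all genes. Both copies had one in RpL34, RpS19 and RpS28, and 1 copy in RpS10 (RpS10b) and RpS14 (RpS14b), while neither copy of RpL10A or RpS15A had one. RpS14a and RpS14b are neighbouring near-identical copies, so how reads were split between them is uncertain: RpS14a had its own pooled peak at rank 7795 and ranked 22434, 5727 and 10449 in the replicates. RpL34a, RpS19b and RpS28a took their peaks from summits nearer to another gene.

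Genes with no peak in any of the pooled and replicate lists included RpL10Aa, RpL22-like and RpS10a. RpL22-like is known as the paralog of the male germline, and its widely expressed counterpart RpL22 ranked 9047 in the pooled list. RpS9 had no pooled promoter peak but ranked 3270 in replicate 2 and 6993 in replicate 3, with none in replicate 1. Of the 5 paralogs whose symbols end in -like, RpL24-like and RpLP0-like had IDR peaks, RpL7-like ranked 13380 and RpS28-like 10516 in the pooled list. The ubiquitin fusion genes RpS27A and RpL40 had no IDR peak and pooled ranks of 5353 and 24553. RpS6, whose protein is the classical substrate of S6 kinase, had an IDR peak of 361 with its summit 105 bp downstream of the TSS and ranks of 4827, 2752 and 4928.

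Other genes of translation were set beside the family and beside all protein-coding genes, of which 18.4% had an IDR peak, with a median signal of 487. The mitochondrial ribosomal protein genes had one at 18 of 73 (24.7%, Wilson 95% interval 16.2 to 35.6), with a median signal of 681. Of those 18 genes 15 (83.3%) were strong in all 3 replicates, against 68.2% of all genes with an IDR peak, and 6 (33.3%) had the summit within 100 bp of a TSS, against 28.1%. The proteasome genes, another set of ubiquitous complex genes, had one at 6 of 48 (12.5%, interval 5.86 to 24.7). Both intervals include the share of all genes. Over the whole IDR list the cytoplasmic genes thus had the larger share of genes with a peak and the lower signal. The counts were not tested against each other. Among the strongest 2524 pooled peaks the shares were 17.4% of the cytoplasmic, 17.8% of the mitochondrial and 8.33% of the proteasome genes. Initiation factor genes had a peak at 14 of 44 (31.8%, interval 20 to 46.6), led by eIF3h (1397) and eIF4E1 (1175), and elongation factor genes at 6 of 8 (interval 40.9 to 92.9), led by eEF1alpha1 (1665). Genes of small nucleolar RNPs and ribosome assembly had one at 6 of the 19 matched (31.6%, interval 15.4 to 54.0), including nop5 (568) and RIOK1 (484). Of the small-subunit genes outside the symbol rule, sta had a peak of 372 and Rack1 had a pooled rank of 5430. Of 7 genes for regulators of ribosomal protein promoters 5 had a peak, and Myc and Trl had none. Trf2 at 2929 (IDR rank 32) stood far above Dref (781), M1BP (395), pzg (373) and Mnt (309). Its summit lay 753 bp downstream of a TSS. The peaks of Dref, eIF1 and bys were those also counted for RpL13, RpL28 and RpS6 in the family. Of S6k, raptor and Thor, which act in Tor signalling to translation, S6k (588) and raptor (425) had one.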

How the data were processed

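The 3 biological replicates formed 1 group. Per the text files deposited with them, the authors called each replicate's peaks on dm6 from its alignment and 1 control shared by all 3, the pooled list from all alignments, and the optimal IDR list from these lists. The peak caller and aligner were not given in the sources used here. Each deposited peak signal, whose scale is not stated, and summit was used as it stands. The deposited −log10 q value was not used for ranking, since it is constant in the IDR list. The IDR peaks were the 5049 strongest pooled peaks. Read depth is unknown, and its effect on precision could not be measured. Wilson 95% intervals take genes as independent and do not cover the spread between replicates.

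Ensembl release 115 supplied gene models on the 7 arms (18 coding genes elsewhere were left out) and sequence from RefSeq Release 6, with Python 3.11.15, numpy 2.4.6, pandas 2.3.3 and scipy 1.17.1. Peaks were ranked by signal within a list. The assignment of summits was tested on simulated data. With 1 group, counts and medians are given beside those of all genes, with no test. Motifs were exact matches. DRE and E-box read the same on both strands. Alternatives changed the distance, TSSs, assignment, list, replicates and motif position.

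Genes named are the 15 with the highest signal, those at the limits of distance and rank, those without a pooled peak, the listed paralog families, RpS6 and RpL11, and those strong in fewest replicates. Sequences follow the same rule. RpL34a, RpL18, RpL14, RpL32, RpS19a and the genes sharing a summit were named after their values were seen. The members and lists were chosen with earlier results of these data known. The symbols nop19, max and Tor were not matched. The values of a few genes that these rules name are not reported here.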

Additional observations from a re-analysis of the deposited data

How the results depend on the processing

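The count of 41 ribosomal protein genes with an IDR promoter peak stayed between 33 and 47 as the distance or TSSs changed. Those counts were 35.9% to 51.1% of the family, against 12.1% to 22.7% of all genes. The settings were limits of 250, 500 and 2000 bp, 1 TSS per gene and only the nearest TSS. The count was 16 (17.4%, against 9.52% of all genes) with the strongest 2524 IDR peaks. With the whole pooled list it was 87 (94.6% against 56.6%). Requiring strong peaks in both remaining replicates when 1 was left out gave 23 to 33. The 22 genes strong in all 3 replicates became 80 with the whole replicate lists (87.0%, against 43.0% of all genes). They became 9 with the 2524 strongest of each (9.78% against 6.44%). Within 500 and 2000 bp they were 19 and 27 (20.7% and 29.3%, against 9.80% and 16.1%). With 1 replicate left out they were 23 to 33, a count that asks for fewer replicates and so cannot fall below 22. The median IDR signal of 429 was 425 within 500 bp and 403 with only the nearest TSS. It was 466 to 537 among genes strong in both remaining replicates with 1 left out, a selection that drops weaker peaks by its construction, and lay below that of all genes in each of these settings. The median summit position of -28 bp became 6 bp in replicate 1 alone, where the cause was not tested. The TCT initiator, at 72 genes, was at 74 within 20 bp of a TSS (80.4%, against 2.84% of all genes). It was at 42 with 1 TSS per gene (45.7% against 1.11%), where the outermost start can lie upstream of the initiator. No paired analysis was possible because there was 1 group. Depth limits could not be set without read counts.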

Other observations

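A TCT initiator of the same form stood at 181 coding genes outside the ribosomal protein family, a set looked at after the family's values were seen. An IDR promoter peak was present at 55 of them (30.4%), against 18% of the 13695 other genes without the initiator. In all, 12 of those 55 summits (21.8%) lay within 100 bp of a TSS, against 28 of 41 in the ribosomal protein genes. Over all genes outside the family with an IDR peak the share was 27.5%. The highest signals among them were at ASPP (3303), arm (2686), which encodes the fly beta-catenin, px (2423) and eEF1alpha1 (1665). No test was made of these counts.

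The share of ribosomal protein genes with an IDR peak was 36.8% of 19 on 2L, 38.1% of 21 on 2R, 52.2% of 23 on 3R, and 7 of 14 on both 3L and the X, and the 1 gene on chromosome 4, RpS3A, had none. Over all genes the shares were 17.8% on 2L, 17.6% on 2R, 18.2% on 3R and 18.7% on 3L, with 439 of 2196 genes on the X and 20 of 80 on chromosome 4. The median GC content of the promoter window was 39.3% in the 41 genes with a peak, 35.7% in the 51 without, against 39.0% in all promoters with an IDR peak and 38.0% in all promoters without.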
